A study of Mus musculus with 12 samples.

Results

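Inhibitory checkpoint receptors and ligands were followed as 9 of the 20778 genes measured by mRNA sequencing in 12 libraries of mouse splenic T cells. The 9 genes were taken by symbol and by no threshold on their values, as a family chosen with earlier results of these data known: the 7 receptor genes Pdcd1 (PD-1), Ctla4 (CTLA-4), Tigit, Lag3 (LAG-3), Cd160, Btla and Havcr2 (TIM-3), and the 2 genes of the PD-1 ligands, Cd274 (PD-L1) and Pdcd1lg2 (PD-L2). All 9 were in the table and all 9 passed the filter on low counts. The study set expression profiles of T cells side by side after different activations. Spleens of C57BL/6 mice, aged 6 weeks by the labels, gave the CD8+ T cells by a magnetic bead separation, and every group spent 6 h in culture. Naïve cells were left untreated. The other groups received αCD3, an antibody that engages the T cell receptor complex, at 1 µg/ml, IFNγ at 70 ng/ml, or LPS, a bacterial ligand of Toll-like receptor signalling, at 1 µg/ml. For αCD3 and LPS another label writes mg in place of µg, so these 2 doses are uncertain. Each group held 3 libraries, and nothing in the labels says that they came from separate mice or cultures, so the p-values measure the spread between these libraries, which may be technical.

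Checkpoint receptors are surface proteins that dampen T cell activation when they meet their ligands. PD-1 binds PD-L1 and PD-L2, CTLA-4 competes with the costimulatory receptor CD28 for CD80 and CD86, LAG-3 binds MHC class II, TIGIT binds the poliovirus receptor, BTLA and CD160 share the ligand HVEM, and TIM-3 binds several ligands, galectin-9 among them. Several of the receptors are induced on T cells by antigen receptor signalling, and PD-L1 is a known target of IFNγ. BTLA is also present on B cells, TIM-3 also on macrophages and dendritic cells, and PD-L1 and PD-L2 on antigen-presenting cells.

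The genes of the PD-1 ligands are neighbours on chromosome 19 of GRCm38. Cd274 spans chr19:29367455-29388095 and Pdcd1lg2 chr19:29410919-29471161, both on the plus strand, with 22823 bases between them. The 250 bases before each start, from RefSeq on GRCm38.p6, are shown because these adjacent genes gave different values below. The RefSeq start of Cd274 lies upstream of the start of the span above, and the positions below count from the RefSeq starts. Capitals mark matches to the motifs named here, searched on both strands.
Cd274, chr19:29367188-29367437, plus strand: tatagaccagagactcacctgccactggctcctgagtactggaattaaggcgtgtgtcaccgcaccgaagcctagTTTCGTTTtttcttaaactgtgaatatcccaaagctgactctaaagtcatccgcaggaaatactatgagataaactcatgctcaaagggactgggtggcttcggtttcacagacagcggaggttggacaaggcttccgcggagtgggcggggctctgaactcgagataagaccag
Pdcd1lg2, chr19:29410669-29410918, plus strand: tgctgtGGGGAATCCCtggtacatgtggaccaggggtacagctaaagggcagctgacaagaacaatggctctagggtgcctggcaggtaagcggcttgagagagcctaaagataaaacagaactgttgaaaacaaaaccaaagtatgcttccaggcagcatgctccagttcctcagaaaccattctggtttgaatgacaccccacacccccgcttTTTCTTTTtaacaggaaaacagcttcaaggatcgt
Both windows hold the IRF motif AANNGAAA on the minus strand, at -175 from the start of Cd274 and at -35 from that of Pdcd1lg2. The Pdcd1lg2 window also holds an NF-κB match at -244. The IRF motif was found in 23.9% and the NF-κB match in 4.51% of all 32851 promoter windows of this length. The RefSeq table held 9 promoters of 8 members, and among the others Pdcd1 had the IRF motif at -28 and Havcr2 the AP-1 motif TGANTCA at -200 (7.81% of all windows). The longer ISRE core, which can overlap the IRF motif, was found in 3.44% of all windows and in 0 of the 9. A match is a description of the letters and not a binding site.

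Depth ran from 10196248 to 27610175 counts per library. The libraries numbered 1 stood apart in every group: the mean chi-square per gene between library 1 and the other libraries of its group was 21.3 to 55.2, against 4.67 to 5.94 between libraries 2 and 3. The labelled cell type was checked against its markers. The 6 CD8 T cell genes in the table, Cd3d, Cd3e, Cd3g, Cd8a, Cd8b1 and Cd2, were all present, and their summed level was 1061 to 1124 CPM (counts scaled to the library size) in Naïve cells, 1420 to 1667 after αCD3, 1130 to 1212 after IFNγ and 901 to 1059 after LPS. However, 7 B cell genes summed to more in every library: 2890 to 3166 CPM in Naïve cells, 2100 to 2332 after αCD3, 2541 to 2626 after IFNγ and 1666 to 2181 after LPS, or 1.26 to 2.98 times the CD8 T cell sum. Myeloid genes (8) summed to 418 to 825 CPM in Naïve cells, 289.5 to 436 after αCD3, 339 to 634 after IFNγ and 266 to 463 after LPS, with library 1 the lowest of each group. The sums of the smaller lists ran over all libraries from 25.2 to 42.2 CPM for CD4 T cells, 45.9 to 71.5 for regulatory T cells, 48 to 118 for dendritic cells and 5.01 to 16.2 for NK cells. No B cell, myeloid or CD8 T cell marker was at 0 in any library. The values below are thus those of a mixed population, and in such bulk samples fewer cells of a type and less RNA per cell cannot be told apart.

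**Figure D1:**
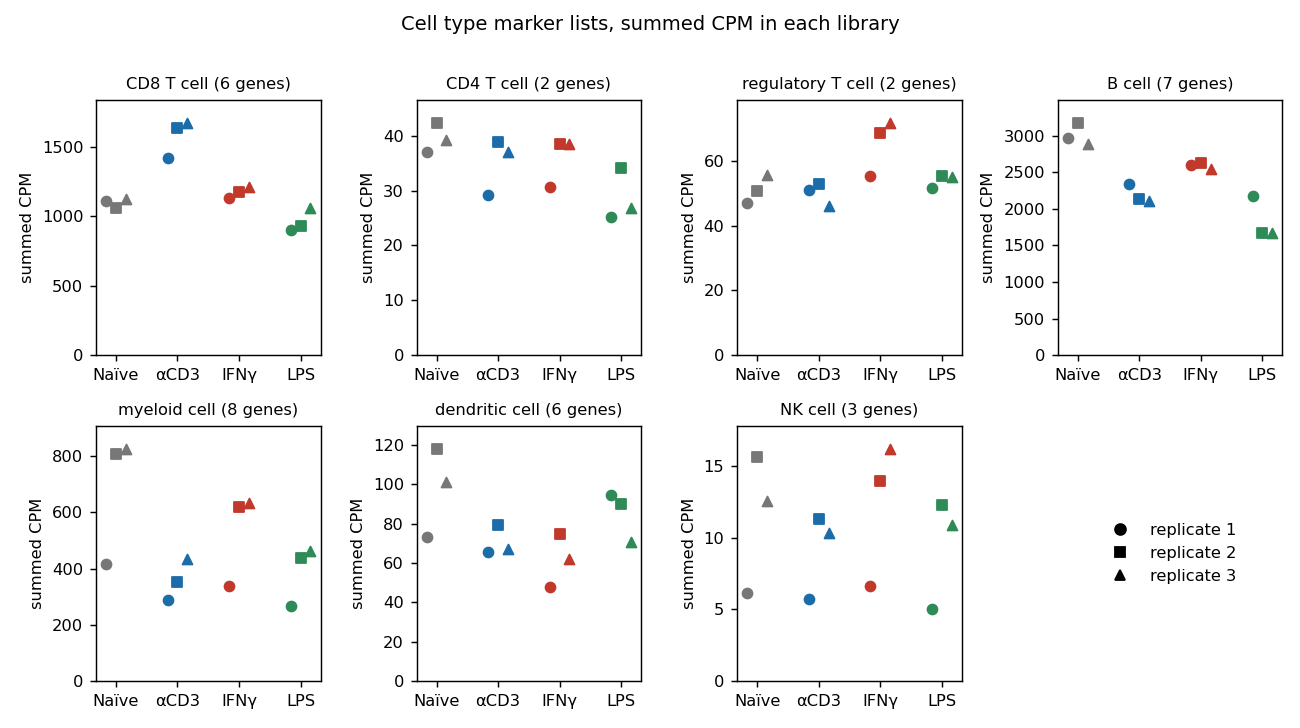
Summed CPM (y axis) of the 7 cell type marker lists in each of the 12 libraries, by group (x axis), with the replicate number as the point's shape. The B cell sum exceeded the CD8 T cell sum in every library, and the myeloid and NK cell sums were lowest in library 1 of every group.

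To assess which checkpoint genes responded, each treatment was compared with Naïve cells by edgeR's quasi-likelihood test over 12122 genes, with called meaning an adjusted p under 0.05. After αCD3, 7 of 9 members were called higher, where 22.9% of all tested genes were, and 0 were called lower, where 15.7% were. Havcr2 was lower at an unadjusted p under 0.05, and DESeq2 and limma-voom each called 0 lower. After IFNγ, 3 of 9 were called higher (Cd274, Lag3 and Btla), against 8.17% of all genes, and 0 were called lower, against 4.27%. By unadjusted p, by DESeq2 and by limma-voom the number lower after IFNγ was also 0. After LPS, 3 of 9 were called higher (the same Cd274, Lag3 and Btla), against 26.9%, and 1, Havcr2, was called lower, against 22.3%. These shares depend on the scaling: with library size alone, 2095 of all tested genes were called higher and 2667 lower after αCD3 (2775 and 1906 with TMM), 715 and 1564 after IFNγ (990 and 518), and 2140 and 4380 after LPS (3265 and 2709). The 3 comparisons share the Naïve libraries. The median log2 fold change of the 9 members was 0.78 after αCD3, 0.18 after IFNγ and 0.22 after LPS, while the median of all tested genes lay at -0.02, -0.02 and -0.01. In the test for any difference among the 4 groups, 8 of 9 members were called, against 59.9% of all genes. The exception was Pdcd1lg2, with an adjusted p of 0.931.

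**Figure D2:**
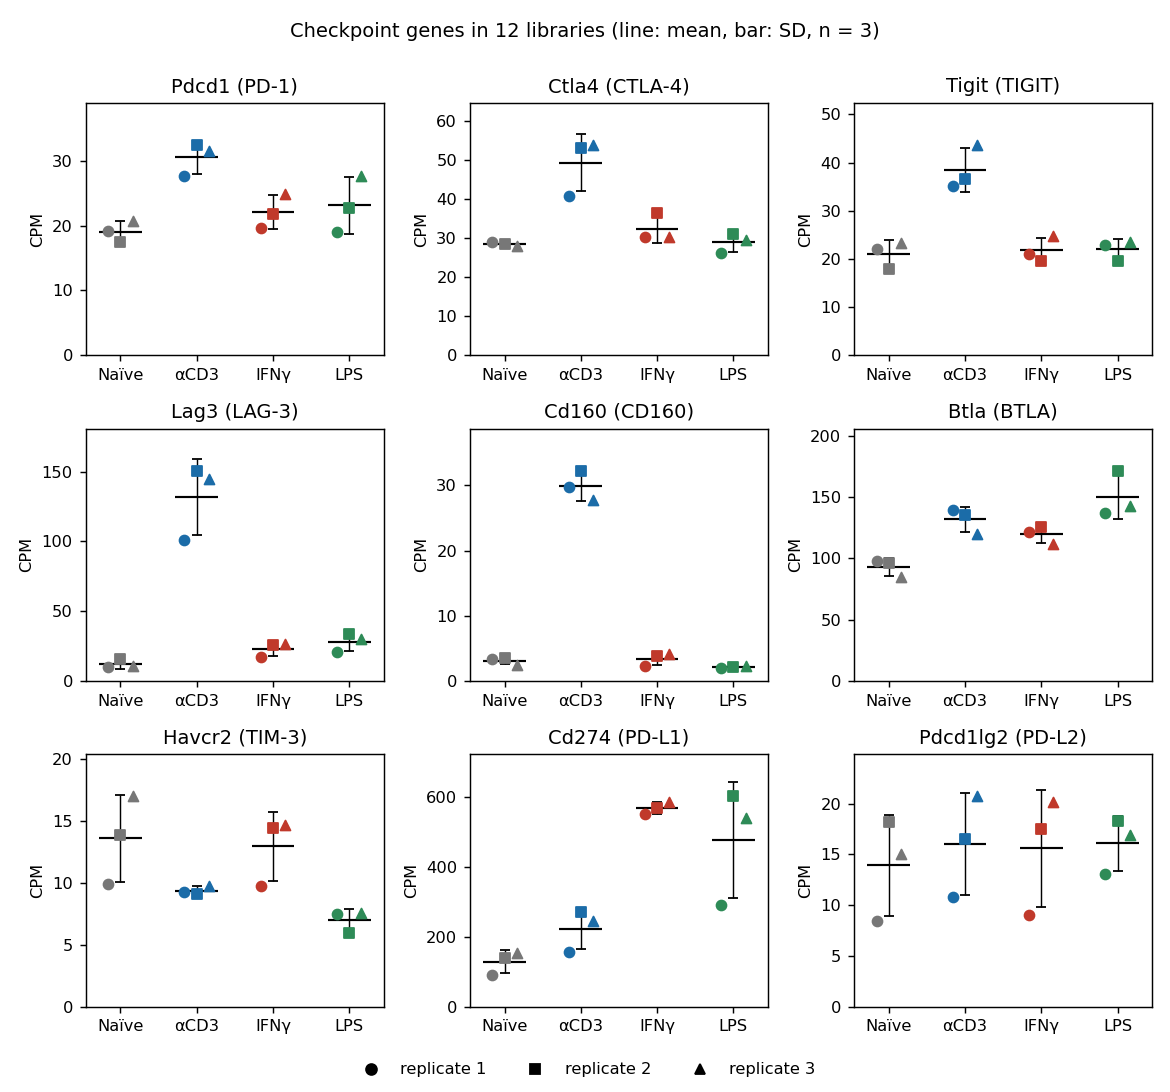
CPM (y axis, from 0) of the 9 genes in each library by group (x axis), with the replicate number as the point's shape, a line at the mean of 3 and a bar for the SD. Lag3 and Cd160 were far higher in αCD3 than elsewhere, Cd274 was highest in IFNγ and LPS, and library 1 was the lowest of each group for Cd274, Pdcd1lg2 and Lag3.

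Among the ligands, Cd274 stood at 91.7, 139.5 and 154 CPM in Naïve libraries 1 to 3, at 157, 270.3 and 245 after αCD3, at 551, 568 and 587 after IFNγ, and at 290.4, 603 and 540.4 after LPS. All IFNγ and all LPS libraries lay above all Naïve and αCD3 libraries, and αCD3 library 1 was only just above the highest Naïve library. Cd274 rose with IFNγ by 2.15 ± 0.30 on the log2 scale (SE, a 4.43-fold change, adjusted p = 0.00145) and with LPS by 1.90 ± 0.29 (3.72-fold, adjusted p = 4.62e-04). With αCD3 the difference was 0.80 ± 0.29 (1.74-fold, adjusted p = 0.0478). That call was lost in 10 of 14 alternatives, among them limma-voom, another scaling and leaving out any Naïve library, with adjusted p up to 0.164. The difference stayed between 0.61 and 1.00 in all 14. With the replicate block, which called 52.4% of all genes in this comparison, the adjusted p was 0.00586. For Cd274, library 1 of the LPS group held 0.508 times the mean of LPS libraries 2 and 3. This ratio was 0.61 in the αCD3, 0.624 in the Naïve and 0.954 in the IFNγ group. The transcript of IFNγ itself, Ifng, a gene looked up after these values were seen, stood at 8.69, 300.2 and 260.5 CPM in LPS libraries 1 to 3, at 4.34, 40.6 and 31.2 after αCD3, and between 1.80 and 5.07 in the Naïve and IFNγ libraries. Its part in the Cd274 values was not tested. Of the 31-base words of Cd274 transcripts, 85.44% were unique to the gene. The rest were shared mainly with the antisense gene AC119228.1, which was not analysed here, and no strand setting was given for the counting.

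Pdcd1lg2, the neighbouring ligand, stood at 8.48, 18.2 and 15.1 CPM in Naïve libraries 1 to 3, at 10.8, 16.5 and 20.7 after αCD3, at 9.07, 17.5 and 20.2 after IFNγ, and at 13.1, 18.2 and 16.9 after LPS. The 4 groups overlapped throughout, and library 1 was the lowest of each, at 0.481 to 0.745 times the mean of the others. The difference from Naïve cells was 0.17 on the log2 scale with IFNγ (95% interval -0.62 to 0.95), 0.20 with αCD3 (-0.58 to 0.97) and 0.22 with LPS (-0.56 to 1.00), with adjusted p of 0.820, 0.690 and 0.637. These intervals leave room for changes of either sign, and they do not reach the size seen for Cd274 with IFNγ or LPS. The myeloid marker sum was likewise lowest in library 1 of every group, and its part in the Pdcd1lg2 values was not tested.

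The receptor genes are all protein-coding and, on GRCm38, lie apart from the ligands: Lag3 at chr6:124904361-124911705, Pdcd1 at chr1:94038305-94052553, Tigit at chr16:43648867-43664146 and Cd160 at chr3:96798763-96829351 on the minus strand, and Ctla4 at chr1:60887000-60915832, Btla at chr16:45224315-45257670 and Havcr2 at chr11:46454935-46481255 on the plus strand. Lag3 and Cd160 had the largest changes after αCD3. Lag3, a receptor for MHC class II, stood at 9.65, 15.6 and 10.5 CPM in Naïve libraries 1 to 3, at 101, 151 and 144 after αCD3, at 17.4, 25.9 and 26.1 after IFNγ, and at 20.7, 33.5 and 30.2 after LPS. Each treated group lay above all Naïve libraries, and the αCD3 libraries lay above all others. Lag3 rose with αCD3 by 3.48 ± 0.26 on the log2 scale (11.1-fold, adjusted p = 1.10e-05) and with LPS by 1.25 ± 0.26 (2.39-fold, adjusted p = 0.00251). With IFNγ it rose by 0.97 ± 0.26 (1.95-fold, adjusted p = 0.0351), a call lost in 6 of 14 alternatives: with no count filter, with limma-voom, and without Naïve library 1 or 3 or IFNγ library 2 or 3, with adjusted p up to 0.125.

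Cd160, a receptor for HVEM, stood at 3.36, 3.44 and 2.48 CPM in Naïve libraries 1 to 3, at 29.7, 32.3 and 27.8 after αCD3, at 2.27, 3.80 and 4.09 after IFNγ, and at 1.94, 2.19 and 2.33 after LPS. The αCD3 libraries stood alone, above the highest other library by a wide margin, and the LPS libraries lay just under the lowest Naïve library. Cd160 rose with αCD3 by 3.27 ± 0.20 on the log2 scale (9.65-fold, adjusted p = 4.69e-06). With IFNγ the difference was 0.12 (95% interval -0.35 to 0.59) and with LPS -0.52 (-1.01 to -0.02, adjusted p = 0.0770). The LPS difference was called in 2 of 14 alternatives, scaling by library size alone and leaving out Naïve library 3, with adjusted p down to 0.0145. Outside the αCD3 group the gene had 19 to 69 counts per library, against 345 to 843 within it, so its small differences rest on few reads.

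Pdcd1, Ctla4 and Tigit moved by similar sizes with αCD3. Pdcd1, which encodes PD-1, stood at 19.2, 17.4 and 20.7 CPM in Naïve libraries 1 to 3, at 27.6, 32.5 and 31.6 after αCD3, at 19.6, 21.8 and 24.9 after IFNγ, and at 19.0, 22.7 and 27.8 after LPS. It rose with αCD3 by 0.67 ± 0.14 on the log2 scale (1.60-fold, adjusted p = 0.00340), although LPS library 3 reached the lowest αCD3 library. With IFNγ the difference was 0.21 (95% interval -0.10 to 0.52). With LPS it was 0.28 (-0.03 to 0.59, adjusted p = 0.124), and it was called in 3 of 14 alternatives: without LPS library 1, without all libraries numbered 1, and under the replicate block, for which the adjusted p was 0.0400 and 59.5% of all genes were called in either direction. The lowest adjusted p among these was 0.0274.

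Ctla4, which encodes the competitor of CD28, stood at 29.1, 28.5 and 28 CPM in Naïve libraries 1 to 3, at 40.8, 53.1 and 53.9 after αCD3, at 30.2, 36.4 and 30.4 after IFNγ, and at 26.2, 30.9 and 29.5 after LPS. The αCD3 libraries lay above all others, whereas the LPS libraries lay on both sides of the Naïve values. Ctla4 rose with αCD3 by 0.78 ± 0.12 (log2, 1.72-fold, adjusted p = 4.53e-04), and the difference was 0.18 with IFNγ (95% interval -0.08 to 0.44) and 0.02 with LPS (-0.24 to 0.28). Regulatory T cells also carry CTLA-4 and TIGIT. Their defining factor Foxp3 stood at 26.1 ± 2.43 CPM (SD, n = 3) in Naïve cells, fell with αCD3 to 15.6 ± 1.48 (adjusted p = 0.00226) and with LPS to 18.5 ± 2.21 (adjusted p = 0.0147), while Ikzf2, the other gene of this list, was higher after each treatment.

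Tigit, the receptor for the poliovirus receptor, stood at 21.9, 17.8 and 23.4 CPM in Naïve libraries 1 to 3, at 35.2, 36.5 and 43.7 after αCD3, at 21, 19.6 and 24.6 after IFNγ, and at 22.9, 19.6 and 23.5 after LPS. Only the αCD3 libraries were separate from the rest. Tigit rose with αCD3 by 0.86 ± 0.13 (log2, 1.82-fold, adjusted p = 5.07e-04). The difference was 0.04 with IFNγ (95% interval -0.25 to 0.34) and 0.06 with LPS (-0.23 to 0.35). Of its 31-base words 91.63% were unique, with Sp110 as the main sharer, so reads could in part be divided between these genes. The αCD3 calls of Lag3, Cd160, Pdcd1, Ctla4, Tigit and Btla held in all 14 alternatives.

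Btla, the other HVEM receptor, stood at 97.9, 95.9 and 84.4 CPM in Naïve libraries 1 to 3, at 139.5, 136 and 119.9 after αCD3, at 122, 126 and 112 after IFNγ, and at 137, 172 and 143 after LPS. All 9 treated libraries lay above all 3 Naïve libraries. Btla rose with LPS by 0.70 ± 0.10 on the log2 scale (1.62-fold, adjusted p = 2.31e-04), with αCD3 by 0.51 ± 0.10 (1.42-fold, adjusted p = 0.00247) and with IFNγ by 0.37 ± 0.10 (1.29-fold, adjusted p = 0.0339). The IFNγ call was lost in 8 of 14 alternatives, among them scaling by library size alone and leaving out any Naïve or IFNγ library, with adjusted p up to 0.131. The B cell marker sum moved the other way, to 0.612 times its Naïve level after LPS, 0.728 after αCD3 and 0.86 after IFNγ.

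Havcr2, which encodes TIM-3, stood at 9.90, 13.8 and 16.9 CPM in Naïve libraries 1 to 3, at 9.24, 9.10 and 9.75 after αCD3, at 9.72, 14.4 and 14.6 after IFNγ, and at 7.46, 5.97 and 7.56 after LPS. The LPS libraries lay below all others, and the αCD3 libraries lay just below the lowest Naïve library. Havcr2 fell by 0.95 on the log2 scale with LPS (SE 0.21, 0.517 times the Naïve level, adjusted p = 0.00394), in all 14 alternatives. With αCD3 the difference was -0.53 (95% interval -0.99 to -0.07, adjusted p = 0.0644). It was called in 4 of 14 alternatives: scaling by library size alone, without Naïve library 1, without all libraries numbered 1, and with the replicate block, where the adjusted p was 0.0309 and 52.4% of all genes were called. With IFNγ it was -0.07 (-0.53 to 0.39). Of 8 myeloid genes, 4 were called lower after αCD3, beside 15.7% of all genes, and 4 after LPS, beside 22.3%, with 1 (Cd14) called higher after LPS. With the block, which called 52.4% and 59.5% of all genes in these comparisons, 8 and 7 of them were called lower. After IFNγ none of the 8 was called, 3 were lower at an unadjusted p under 0.05, DESeq2 called 1 and limma-voom 0, and with the block, where 24.9% of all genes were called, 3 were lower. Csf1r, the receptor that maintains macrophages, stood at 109 ± 45.7 CPM in Naïve cells and 26.3 ± 4.47 after LPS. The part of the myeloid cells in the Havcr2 values was not tested.

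To see the members beside the cell mixture, each was divided by the CD8 T cell marker sum of its own library, a quotient chosen after the values were seen and given without a test. The CD8 T cell sum was 1.43 times its Naïve level after αCD3, with 4 of its 6 genes called higher (22.9% of all genes were), and 0.879 times after LPS, with 4 called lower (22.3% of all genes were). Per 100 CPM of the CD8 T cell sum, Lag3 went from 1.09 ± 0.33 (SD, n = 3) in Naïve cells to 8.33 ± 1.1 after αCD3, 7.61 times as much, and Cd160 from 0.283 ± 0.055 to 1.91 ± 0.22, 6.75 times as much. The same quotient after αCD3 was 1.28 times its Naïve level for Tigit, 1.2 for Ctla4, 1.2 for Cd274, 1.12 for Pdcd1, 0.997 for Btla, 0.787 for Pdcd1lg2 and 0.484 for Havcr2. On this scale Lag3 and Cd160 remained far from their Naïve values. After LPS it was 4.21 for Cd274, 2.66 for Lag3, 1.85 for Btla, 1.37 for Pdcd1, 1.31 for Pdcd1lg2, 1.19 for Tigit, 1.15 for Ctla4, 0.789 for Cd160 and 0.589 for Havcr2. After IFNγ it was 4.14 for Cd274, 1.80 for Lag3, 1.21 for Btla and between 0.888 and 1.08 for the others. The B cell sum gave another value for Btla: per 100 CPM of it, Btla stood at 3.08 ± 0.20 in Naïve cells, 6.02 ± 0.33 after αCD3 (1.95 times), 4.63 ± 0.20 after IFNγ (1.5 times) and 8.37 ± 1.99 after LPS (2.71 times), with every treated library above the Naïve ones. The lower B cell sum after LPS lay in Cd79a, from 903 to 294 CPM, and Cd79b, from 801 to 218, while Pax5 was called higher, from 388 to 507, so the LPS quotient follows those 2 genes. Per 100 CPM of the myeloid sum, Havcr2 stood at 2.05 ± 0.33 in Naïve cells, 2.67 ± 0.48 after αCD3, 2.50 ± 0.31 after IFNγ and 1.93 ± 0.77 after LPS, so these groups overlapped. Pdcd1lg2 per 100 CPM of the myeloid sum stood at 2.04 ± 0.22 in Naïve cells, 4.38 ± 0.58 after αCD3, 2.90 ± 0.26 after IFNγ and 4.24 ± 0.64 after LPS, with every treated library above the Naïve ones, unlike its CPM.

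The treatments were next compared directly with each other. Between IFNγ and αCD3, 1 member was called higher with IFNγ, where 15.8% of all genes were, and 5 were called higher with αCD3, where 21.4% were. Cd274 was 2.54-fold higher with IFNγ (log2 difference 1.35 ± 0.29, adjusted p = 0.00425). The IFNγ minus αCD3 difference was -3.15 ± 0.21 for Cd160 (adjusted p = 3.94e-06), -2.51 ± 0.25 for Lag3 (3.93e-05), -0.82 ± 0.13 for Tigit (6.78e-04), -0.60 ± 0.12 for Ctla4 (0.00213) and -0.47 ± 0.14 for Pdcd1 (0.0234). The Pdcd1 call was lost without αCD3 library 2 or 3 or IFNγ library 1 or 2, with adjusted p up to 0.0811. For Havcr2 the difference was 0.46 (95% interval -0.0013 to 0.93, adjusted p = 0.110), called without IFNγ library 1 and without all libraries numbered 1.

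Between αCD3 and LPS, 4 members were called higher with αCD3, against 9.64% of all genes, and 1 was called higher with LPS, against 9.76% (1168 and 1183 genes, which became 1691 and 766 with library size alone). Cd160 was 13.8-fold higher with αCD3 (3.79 ± 0.22, adjusted p = 3.90e-06), Lag3 4.67-fold (2.22 ± 0.25, adjusted p = 2.40e-04), Tigit 1.75-fold (0.80 ± 0.13, adjusted p = 0.00192) and Ctla4 1.70-fold (0.77 ± 0.12, adjusted p = 0.00131). Cd274 was lower with αCD3 (difference -1.09 ± 0.29, adjusted p = 0.0235). That call was lost in a fit of the 2 groups alone and without αCD3 library 1 or 3 or LPS library 2 or 3, with adjusted p up to 0.0922. The replicate block, which called 34.7% of all genes, added Pdcd1, higher with αCD3 (0.39 ± 0.14 in the fit without the block, where the adjusted p was 0.0725, against 0.00896 with it), and Btla, lower (-0.19 ± 0.10, 0.206 against 0.0479). Pdcd1 was also called with library size alone and without LPS library 3, and Btla in no other of the 14 alternatives.

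Between IFNγ and LPS, 2 members were called higher with IFNγ, where 18% of all genes were, and 1 was called lower, where 22.4% were (2182 and 2713 genes, which became 2586 and 2330 with library size alone). Havcr2 was 1.84-fold higher with IFNγ (0.88 ± 0.22, adjusted p = 0.00750). Btla was lower with IFNγ (-0.33 ± 0.10, adjusted p = 0.0216), a call lost in 4 of 14 alternatives, without IFNγ library 1 or 3, without LPS library 2, or with library size alone. Cd160 was higher by 0.64 ± 0.23 (adjusted p = 0.0443), which was lost in 9 of 14 alternatives, DESeq2 and limma-voom among them, with adjusted p up to 0.150. The Cd274 difference was 0.25 (95% interval -0.38 to 0.88, adjusted p = 0.508). For Lag3 the difference was -0.29 (-0.85 to 0.27, adjusted p = 0.388), and it was called lower with IFNγ under the replicate block (adjusted p = 0.0328, where 52.7% of all genes were called).

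**Figure D3:**
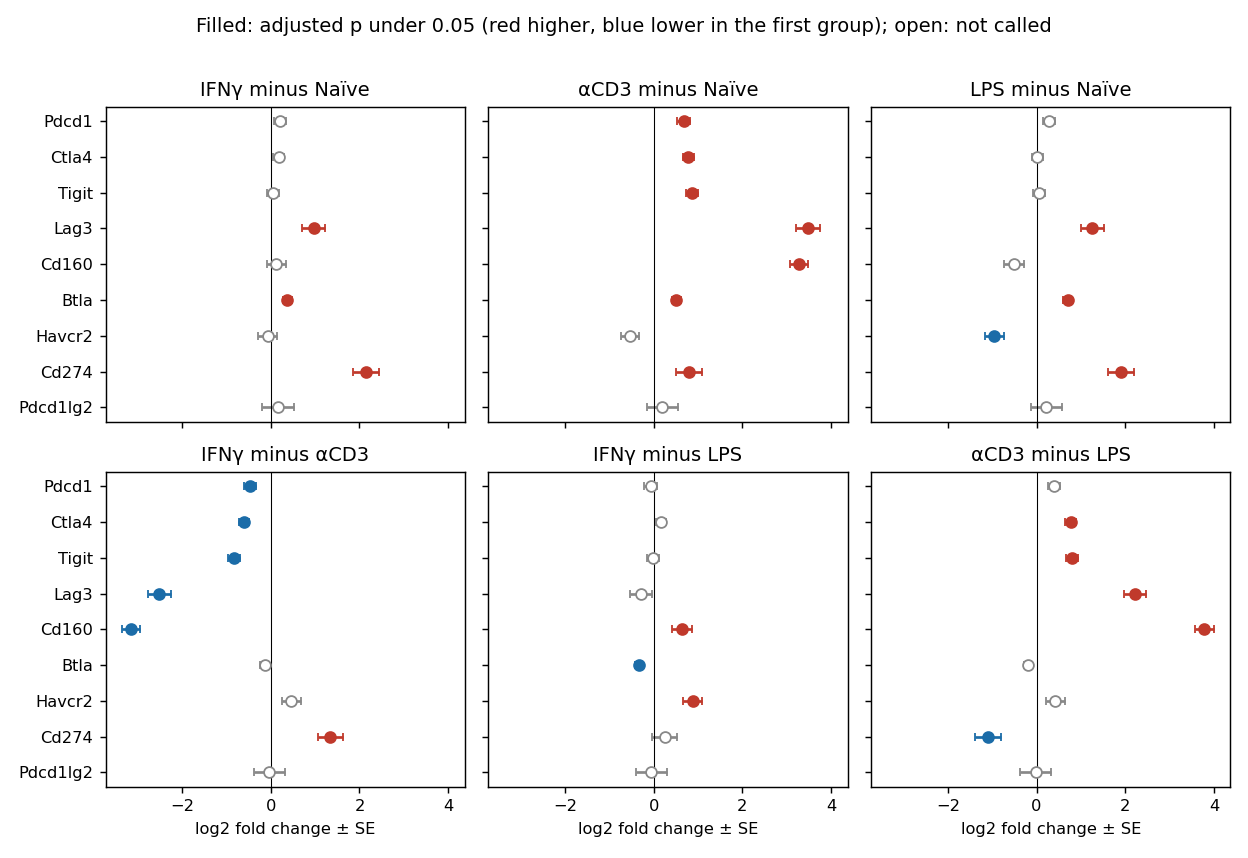
Log2 fold change ± SE (x axis) of the 9 genes in the 6 comparisons among the groups, filled where the adjusted p was under 0.05, red for higher and blue for lower in the first group of each title. Lag3 and Cd160 gave the longest distances in each comparison that involves αCD3, and Pdcd1lg2 was called in none.

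Levels of different members were set side by side only per length, as CPM per kb of the gene's exons. The marker sums above carry no such scaling and hold unequal numbers of genes, so their ratios do not measure shares of cells. In Naïve cells the order was Cd274 at 35.5 ± 9.04 (SD, n = 3), Btla at 27.3 ± 2.14, Tigit at 22.9 ± 3.13, Ctla4 at 12.2 ± 0.24, Pdcd1 at 9.90 ± 0.85, Pdcd1lg2 at 7.10 ± 2.53, Lag3 at 5.66 ± 1.53, Havcr2 at 4.98 ± 1.30 and Cd160 at 1.17 ± 0.20. Library ranges overlapped between neighbours from Cd274 to Tigit and from Pdcd1 to Havcr2, so these neighbours were not separate. After αCD3, Lag3 stood first at 62.6 ± 12.8, overlapping Cd274 at 61.8 ± 16.4, with Tigit at 41.8 ± 4.95 and Btla at 38.8 ± 3.06 next and overlapping too. Cd160 reached 11.3 ± 0.85, overlapping Pdcd1lg2 at 8.16 ± 2.55, while Havcr2 was last at 3.44 ± 0.12. After IFNγ, Cd274 led at 157 ± 4.96, with Btla next at 35.3 ± 2.06 and no overlap. After LPS, Cd274 led at 132 ± 45.6, with Btla at 44.3 ± 5.44, also without overlap. Cd160 was last in the Naïve, IFNγ and LPS groups. The order was the same when the longest transcript replaced the exon union, apart from Pdcd1 and Lag3 in the IFNγ group and Lag3 and Ctla4 in the LPS group, which changed places and whose ranges overlapped.

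**Figure D4:**
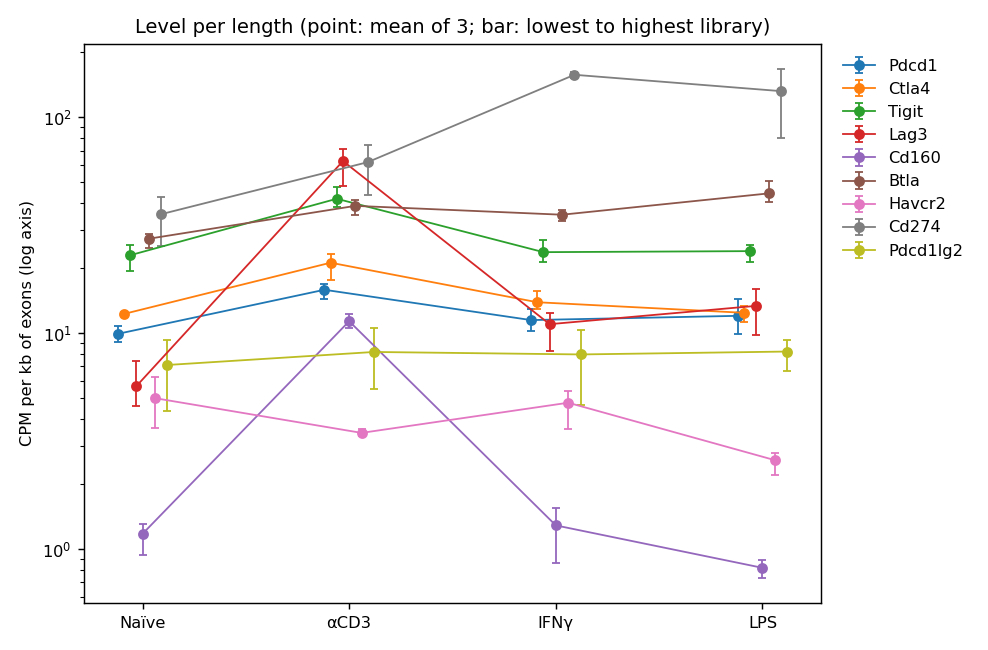
Level per length of the 9 genes, in CPM per kb of exons (y axis, log scale), in the 4 groups (x axis), with points at the mean of 3 libraries and bars from the lowest to the highest. Lines join the same gene across groups and do not stand for an order in time. Lag3 went from 5.66 in Naïve cells to 62.6 after αCD3, Cd160 from 1.17 to 11.3, and Cd274 reached 157 after IFNγ.

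The genes whose log2 CPM followed each member most closely over the 12 libraries were listed as a description, by Pearson's r over libraries that share 4 groups. For Cd274 they were Igtp (0.994), Iigp1 (0.990) and Tap1 (0.986), of which the first pair are immunity-related GTPases and Tap1 is the peptide transporter subunit of class I presentation. For Lag3 they were Tuba1b (0.981), Parn (0.977) and Ei24 (0.973), and for Cd160 Sept7 (0.985), Zap70 (0.976), the kinase that binds the activated T cell receptor, and Rgs16 (0.975). Ctla4 was followed by Smyd1 (0.972), Icos (0.951), the costimulatory receptor whose gene lies beside it, and Isy1 (0.951). Tigit was followed by Crtam (0.953), Tuba4a (0.949) and Lcp2 (0.946), the latter an adaptor of T cell receptor signalling. The closest genes to Pdcd1 were Ppil3 (0.941), Nr4a3 (0.911), an orphan nuclear receptor induced by antigen receptor signals, and Tuba1b (0.911). Btla was followed by Trim44 (0.961), Gtf3c6 (0.953) and Rbm26 (0.947). The closest genes to Havcr2 were Tmem51 (0.956), Psap (0.955) and Cd36 (0.951), the last a scavenger receptor of macrophages. Pdcd1lg2 had the lowest values, with Cdkn1a (0.915), Nek6 (0.908) and Sparc (0.901). Among the members themselves, Ctla4 and Cd160 (0.923) and Ctla4 and Lag3 (0.909) were closest, while Havcr2 and Btla ran opposite (-0.816).

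The other genes of the checkpoint pathway were counted by list, to be read against the shares of all tested genes: 22.9% higher and 15.7% lower after αCD3, 8.17% and 4.27% after IFNγ, 26.9% and 22.3% after LPS, and, with the replicate block and in either direction, 52.4% after αCD3 and 24.9% after IFNγ. With library size alone more genes were called lower than higher in all 3 comparisons. Of 16 counter-ligands and partner receptors, 4 were called higher and 2 lower after αCD3, 4 and 1 after IFNγ (4 and 3 with the replicate block), and 4 and 3 after LPS. The numbers higher after αCD3 and LPS were thus near the shares of all genes. Lgals9, which encodes the TIM-3 ligand galectin-9, rose after each treatment, from 91.7 ± 9.15 CPM in Naïve cells to 253 ± 123 after αCD3 (adjusted p = 0.0121), 359 ± 131 after IFNγ (0.00812) and 381 ± 53.3 after LPS (0.00151). Cd28, the costimulatory receptor that shares its ligands with CTLA-4, went from 65.2 ± 14.3 to 228 ± 2.57 CPM after αCD3 (log2 change 1.80 ± 0.20, adjusted p = 9.45e-05). Tnfsf14, which encodes LIGHT, another HVEM ligand, rose by 2.26 ± 0.23 after αCD3 (adjusted p = 4.87e-05) and by 0.90 ± 0.23 after LPS (0.00898). Fgl2, a fibrinogen-like secreted protein, rose by 2.40 ± 0.48 with IFNγ (adjusted p = 0.00968), and its αCD3 difference of 0.81 ± 0.47 was not called, with an adjusted p of 0.199, against 0.00585 with the block.

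Of 16 other inhibitory receptors in the table, 3 were called higher and 4 lower after αCD3 (6 and 6 with the block), 1 and 2 after IFNγ (1 and 4 with the block), and 2 and 10 after LPS. After αCD3, 3 higher and 4 lower of 16 stood beside 22.9% and 15.7% of all genes, and after LPS 10 of 16 lower stood beside 22.3%. The 10 include Lair1, Cd300a, Pilra and Cd200r1, named after their values were seen, which myeloid cells also express. The 10 also hold Cd5 and Cd6, whose values follow. The myeloid sum after LPS was 0.57 times and the CD8 T cell sum 0.879 times its Naïve level, and their part in this count was not tested. The list's median log2 fold change was -0.73 after LPS, beside 0.22 for the 9 members and -0.01 for all tested genes. Cd5, which restrains T cell receptor signals, went from 48.0 ± 9.38 CPM in Naïve cells to 141 ± 26.7 after αCD3 (adjusted p = 2.08e-04) and 23.8 ± 5.04 after LPS (0.00228). Cd6, its paralog, rose by 1.43 ± 0.16 on the log2 scale after αCD3 (adjusted p = 8.18e-05) and changed by -0.49 ± 0.16 after LPS (0.0262). Entpd1, which encodes the ectonucleotidase CD39, rose by 1.48 ± 0.27 with IFNγ (adjusted p = 0.00637). Lilrb4a was called higher after LPS (adjusted p = 0.0183), but its LPS libraries stood at 6.85, 8.15 and 0 CPM and its Naïve libraries at 0.0488, 0 and 0.242, so no fold is given.

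Among 14 inhibitory signalling enzymes and adaptors, 5 were called higher and 3 lower after αCD3, 1 and 1 after IFNγ (2 and 3 with the block), and 3 and 7 after LPS, where 26.9% of all genes were higher and 22.3% lower. After αCD3 the shares of all genes were 22.9% and 15.7%. Cblb, a ubiquitin ligase that limits T cell activation, rose by 1.05 ± 0.09 on the log2 scale after αCD3 (adjusted p = 1.23e-05) and by 0.71 ± 0.09 after IFNγ (6.34e-04). Inpp5d, which encodes the phosphatase SHIP1, was lower after all treatments, from 335 ± 28.3 CPM in Naïve cells to 113 ± 25.2 after LPS (adjusted p = 3.45e-05), 219 ± 38.6 after αCD3 (0.0138) and 227 ± 24.4 after IFNγ (0.0474). Dgka, a diacylglycerol kinase, changed by -0.82 ± 0.26 after αCD3 (adjusted p = 0.0311). Ubash3b changed by -0.79 ± 0.16 after LPS (adjusted p = 0.00180).

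Of 22 transcription factors known to act on checkpoint genes, 9 were called higher and 2 lower after αCD3, 7 and 4 after LPS, and 6 and 0 after IFNγ, where unadjusted p, DESeq2 and limma-voom also gave 0 lower. The LPS counts were near the 26.9% higher and 22.3% lower of all genes. Batf, an AP-1 family factor, went from 43.6 ± 3.82 to 227 ± 33.1 CPM after LPS (log2 change 2.38 ± 0.15, adjusted p = 1.86e-06). Tox2 rose by 2.37 ± 0.28 after αCD3 (adjusted p = 1.09e-04), from 1.81 ± 0.18 to 9.47 ± 0.81 CPM. Jun rose by 2.25 ± 0.27 with IFNγ (adjusted p = 8.43e-04) and by 1.98 ± 0.27 with LPS (2.17e-04). Tbx21, which encodes T-bet, was called after LPS (2.48 ± 0.67, adjusted p = 0.0109), where its SD of 80.1 CPM around a mean of 106 was large, and its IFNγ difference was 1.86 ± 0.66 (0.101).

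The genes around the PD-1 ligands on chromosome 19 were counted as well. Of 6 tested neighbours, 2 were called higher and 1 lower after IFNγ, 3 and 0 after LPS (1 lower at an unadjusted p under 0.05, and 0 lower by DESeq2 and by limma-voom), and 1 and 1 after αCD3 (2 and 2 with the block, which called 52.4% of all genes). Beside so few neighbours stand 8.17% of all genes higher and 4.27% lower after IFNγ, 26.9% and 22.3% after LPS, and 22.9% and 15.7% after αCD3. Insl6 rose by 1.95 ± 0.32 with IFNγ (adjusted p = 0.00322) and by 1.32 ± 0.32 with LPS (0.00620). Rcl1 was lower with IFNγ (-0.31 ± 0.05, adjusted p = 0.00375) and rose by 1.19 ± 0.05 with LPS (6.88e-07) and by 1.05 ± 0.05 with αCD3 (2.47e-06). Plgrkt was lower after αCD3 (-0.52 ± 0.10, adjusted p = 0.00174), and Ric1 rose after LPS by 0.37 ± 0.13 (0.0298).

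**Figure D5:**
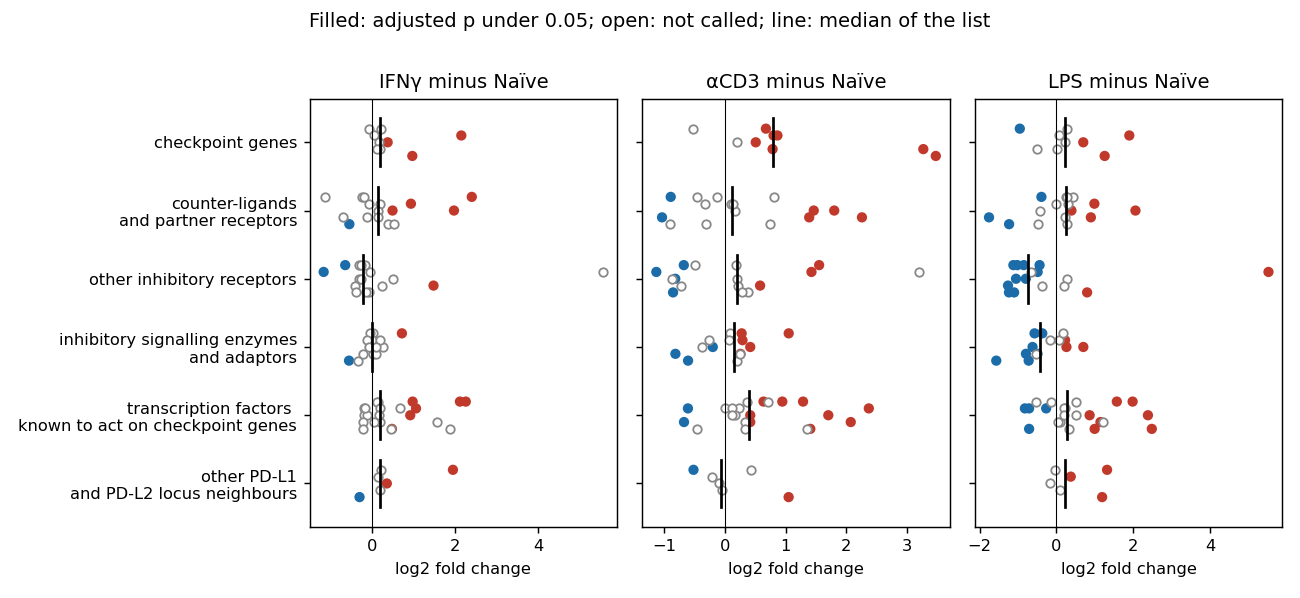
Log2 fold change (x axis) of each tested gene against Naïve cells, for the 9 checkpoint genes and 5 lists of related genes (y axis), filled where the adjusted p was under 0.05 and with a line at each list's median. After αCD3 the checkpoint genes' median was 0.78, and after LPS the median of the other inhibitory receptors was -0.73.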

How the data were processed

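RNA was extracted with a column kit and made into libraries by the INCPM mRNA Seq protocol. Per the study's methods, the authors aligned the reads with Kallisto to mm10 (its version and annotation are not given in the sources used here) and processed them with DESeq2 1.24.0 and TMM. The deposited table holds expected counts per gene, not normalized, with 8757 to 9980 values per library that are not whole, which were rounded to whole numbers. Kallisto divides shared reads between genes by estimation, which can move counts between genes with common sequence. The table's symbols were matched to GENCODE M21 (20620 of 20778). Promoters came from RefSeq, GRCm38.p6.

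All 12 libraries were fitted together with edgeR 4.0.16 (R 4.3.3): filterByExpr, TMM factors, the robust quasi-likelihood test, and Benjamini-Hochberg adjustment over 12122 genes at 0.05. CPM values use the TMM factors, and likeness used log2 CPM with a prior count of 2. The script was tested on simulated counts. The members and all lists were chosen with earlier results of these data known. All 9 members are named, with the 3 genes most correlated with each, and from each pathway list up to 4 called genes with the largest change against Naïve.

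Alternatives were DESeq2 1.42.0, limma-voom (limma 3.58.1), RLE factors, library size alone, no count filter, the 2 groups alone, each library left out, a replicate block and, added after seeing the data, all libraries numbered 1 left out. The labels number the libraries 1 to 3 in each group without saying what a number shares. Same-numbered libraries deviated together in all 18 pairs checked, with correlations of 0.118 to 0.401. Differently numbered libraries were not compared across groups. Library 1 stood apart in every group, which by itself gives libraries 2 and 3 of all groups deviations of like sign. These correlations therefore cannot decide whether the numbers 2 and 3 pair libraries, and the replicate block assumes that they do. Counts limit precision most for Cd160, and intervals cover the spread between libraries.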

Additional observations from a re-analysis of the deposited data

How the results depend on the processing

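Over 14 alternatives and 54 values of a member in a comparison, 694 of 756 refitted values kept both their direction and their side of the threshold or stayed uncalled, 46 lost a call, 16 gained one and 0 reversed a call. In 42 refits the sign differed and the value was called in neither fit. The number of members called with IFNγ against Naïve fell from 3 to 1 with no count filter, and ranged from 1 to 3 when each library was left out, with the value 1 without Naïve library 1 or 3 or IFNγ library 2 or 3. Calls over all genes in this comparison also fell, from 1508 to 1299 with no count filter and to between 787 and 1164 without these libraries, so the fall is not shown to be particular to the members. Between IFNγ and LPS it ranged from 1 to 3 against 3, with the value 1 without IFNγ library 3 or LPS library 2. Over all genes, 4895 calls became 4334 and 3930. The cause was not tested. With the replicate block 3 members were called with IFNγ against Naïve, 8 rather than 7 with αCD3 and 5 rather than 4 with LPS. Over all genes the block raised the calls from 1508 to 3020, from 4681 to 6349 and from 5974 to 7207 in these comparisons. The added calls are thus not shown to be particular to the members. Beyond the 5 changed calls given with the results, the block changed no other member's call (49 of 54 were the same). Scaling by library size alone moved the median of all genes to -0.16 (IFNγ), -0.13 (αCD3) and -0.22 (LPS) against Naïve on the log2 scale, without reversing a call. Depth limits the small differences of Cd160, which had 19 to 69 counts outside αCD3.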
